A study of Mus musculus with 4 samples.

Results

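The gene group described here holds 39 genes of protein folding in the endoplasmic reticulum (ER), taken by name from the 18702 genes listed in each table. It has 34 genes of ER chaperones, the unfolded protein response and ER-associated degradation, and 5 genes that fold and modify collagen (Serpinh1, Fkbp10, Plod1, Plod2 and Plod3). RNA sequencing was done on total RNA from the eyes of C57BL/6 mouse embryos, with 2 libraries from embryos labelled KO, given as Anp32b−/− in the design text of the series, and 2 from embryos labelled WT (Anp32b+/+). Anp32b encodes an acidic nuclear protein that binds histones, and the title of the series names Pax6, a regulator of eye formation, as its point of interest. The stage, sex and number of embryos per library, and the design of the null allele, are not stated in the labels, which also do not say if the libraries of a group are from different embryos. The p-values therefore cover only the spread among these libraries, and that spread may be technical.

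Proteins bound for secretion or the cell surface enter the ER through the SEC61 channel, fold with the help of chaperones such as BiP and of disulphide isomerases, and are sent back to the cytosol for destruction when folding fails. A surplus of unfolded protein activates the sensors IRE1, PERK and ATF6, which raise chaperone and degradation genes through the factors XBP1, ATF4 and ATF6. Procollagen uses the same compartment but needs its own helpers, which hydroxylate its lysines and prolines and hold the triple helix together. In the eye, the stroma of the cornea and the sclera are made largely of fibrillar collagen, while the lens is filled with cytosolic crystallins.

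Levels are given in FPKM, fragments per kilobase of transcript, scaled to the total fragments of the library, and each group is n = 2. Changes are KO minus WT as log2(FPKM + 1), a scale on which the change of a low gene looks smaller than it is, with standard errors (SE) and Benjamini-Hochberg adjusted p-values from limma over all genes tested. A gene was called higher or lower at an adjusted p under 0.05. The steps between low FPKM values gave a rough estimate of 18020000 to 18200000 fragments per library; the fit to whole fragments was too poor to recover counts, so the depth is uncertain. Anp32b (chromosome 4, positions 46450902 to 46472657, GRCm38) stood at 94.53 and 92.67 FPKM in the KO libraries, against 163.18 and 179.12 FPKM in the WT libraries, a log2 change of −0.86. Its mean fell by 45.3% and was not at 0, so that the level of the gene does not by itself show the loss of both copies, and which exons the remaining reads cover cannot be seen in these values. Lens markers were lower in KO (10 of 10 called lower, against 21.1% of all genes). Their summed level was 3336 and 3357 FPKM in KO, against 34105 and 34733 FPKM in WT. Since eye tissue holds many cell types, fewer cells of a type and less RNA per cell cannot be told apart.

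All 5 collagen-processing genes rose in KO eyes, whereas the ER chaperone and stress genes moved less at the median and not all in the same direction. Ddit3 (log2 change 0.61), P4hb (0.56) and Xbp1 (0.54) rose more than the collagen-processing gene Plod3 (0.43). Of the 39 genes, 38 had a mean of at least 1 FPKM and were tested; Derl3 was below that level. Among the 38, 22 were called higher (57.9%) and 2 lower (5.26%), against 33.5% higher and 21.1% lower among all 13887 genes tested. Over both directions 54.6% of all genes were called. The median log2 change of the 38 genes was 0.18, against 0.04 for all genes. In 27 of the 38 both KO values lay above both WT values (45.6% of all genes), in 4 they lay below (32.4%), and in 7 the groups overlapped, while 77.9% of all genes had groups that did not overlap. A rise of at least 0.5 that was also called was found in 7 of the 38, of which 4 were collagen-processing genes; 11.7% of all genes met that rule. No member was called with a fall of at least 0.5, as 3.94% of all genes were.

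**Figure D1:**
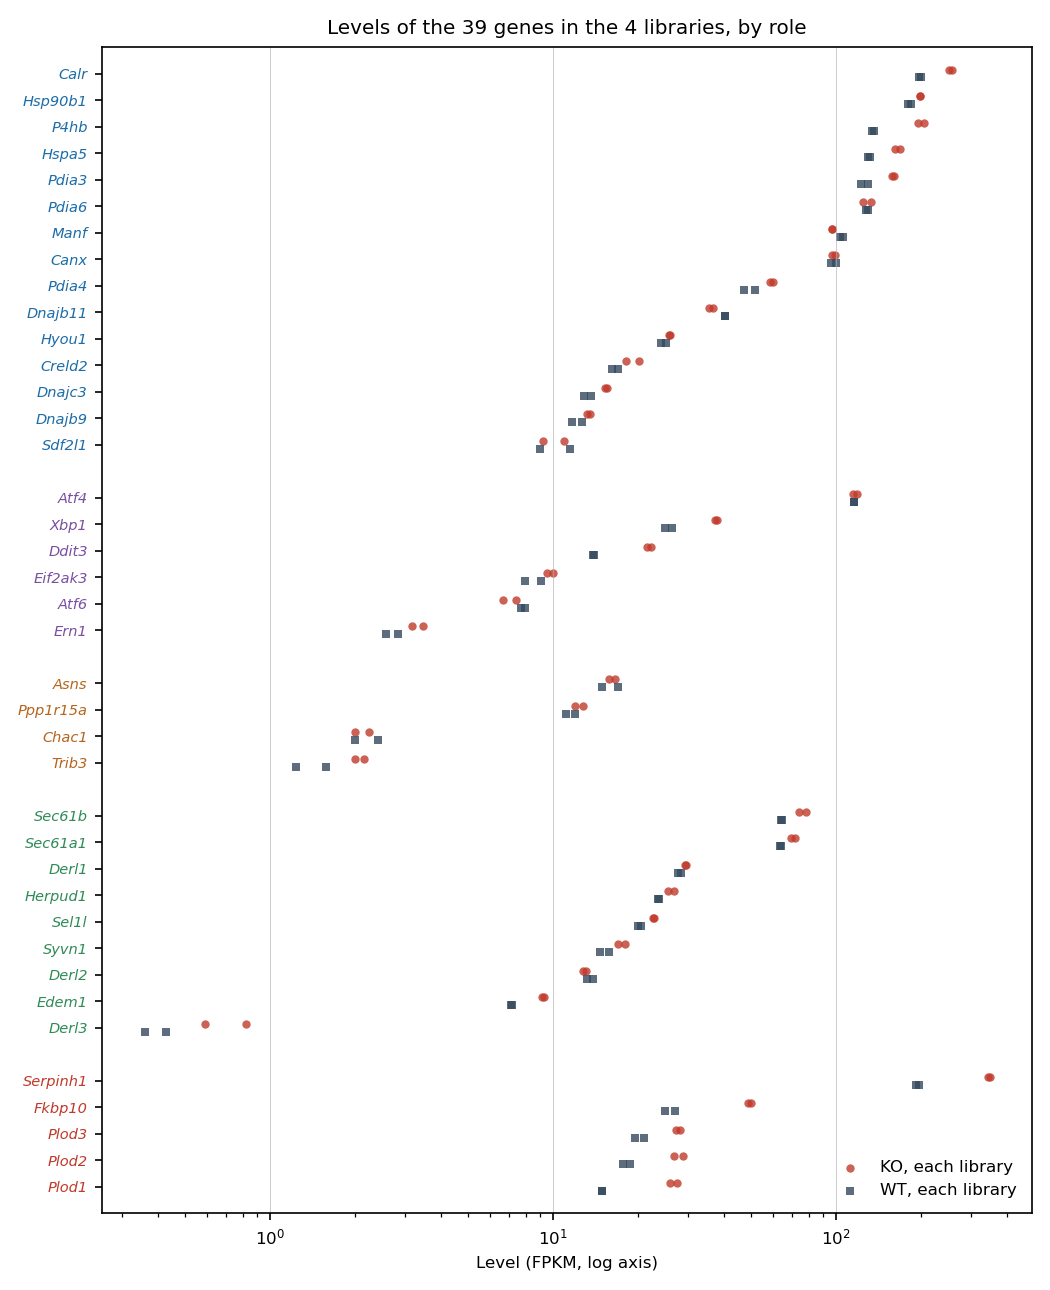
Level in FPKM on a log axis (x) of each of the 39 genes (y), grouped by role, with 1 point for each of the 2 KO and 2 WT libraries. Within the collagen-processing genes at the foot, both KO points lie to the right of both WT points in all 5 rows, while in 7 of the 38 tested genes, such as Canx, Pdia6, Atf4 and Chac1, the groups overlap.

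Serpinh1 encodes HSP47, the ER chaperone that binds the procollagen triple helix, and its level was the highest of the 39 genes in KO. It stood at 343.00 and 348.65 FPKM in KO eyes, against 190.66 and 196.36 FPKM in WT eyes. The KO mean was 78.7% higher, a log2 change of 0.83 (SE 0.03, limma adjusted p = 2.44e-06). Fkbp10 encodes FKBP65, a prolyl isomerase that partners HSP47 on procollagen. It stood at 49.88 and 48.94 FPKM in KO, against 26.84 and 24.76 FPKM in WT, a log2 change of 0.91 (SE 0.04). That was the largest change of the 38 genes tested, and 97.6% of all genes tested had a lower log2 change, with falls of any size counted as lower. Serpinh1 lies on chromosome 7 (positions 99345376 to 99353239, minus strand, GRCm38) and Fkbp10 on chromosome 11 (positions 100415697 to 100424824, plus strand).

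The lysyl hydroxylases prepare collagen lysines for glycosylation and cross-linking, and their 3 genes rose by unequal amounts. Plod1, whose product acts on helical lysines, stood at 25.85 and 27.35 FPKM in KO and at 14.88 and 14.82 FPKM in WT, a log2 change of 0.80 (SE 0.04). Plod2, the hydroxylase of telopeptide lysines, stood at 28.69 and 26.74 FPKM in KO and at 18.73 and 17.63 FPKM in WT, a log2 change of 0.58 (SE 0.05). Plod3, which also carries glycosyltransferase activity, stood at 27.97 and 27.21 FPKM in KO and at 21.00 and 19.41 FPKM in WT, a log2 change of 0.43 (SE 0.05). In all 3 genes the KO libraries lay above the WT libraries by more than the gap within either group. Both KO values lay above both WT values in 45.6% of all genes. In WT eyes Plod1 had the lowest mean of the trio (14.85 FPKM), but in KO eyes the 3 means were between 26.6 and 27.7 FPKM. All 5 collagen-processing genes were called under each of 11 alternatives of pseudocount, filter, block, scaling and libraries, with adjusted p of at most 0.0115; with a minimum log2 change of 0.5 in addition, Plod3 was not called. No source used here states the use of strand in assigning reads. Plod3 shares 11.7% of its annotated exon bases with Znhit1 on the opposite strand, Fkbp10 6.58% with Nt5c3b and Plod2 6.42% with Gm38391, so their reads may include those of these neighbours.

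Other genes of collagen maturation were higher as well. Of 28 tested, 25 were called higher (89.3%, against 33.5% of all genes) and none lower (against 21.1%), with a median log2 change of 0.72. Those with the largest changes were Lox, the lysyl oxidase that cross-links collagen outside the cell (113.27 and 115.74 FPKM in KO, against 49.28 and 48.42 FPKM in WT), the propeptidase gene Adamts14 (log2 change 1.12) and Fkbp7, a further prolyl isomerase of the ER (1.09). The alpha subunits of collagen prolyl 4-hydroxylase, P4ha1 (0.51) and P4ha2 (1.00), and the prolyl 3-hydroxylase partners P3h1 (0.94) and Crtap (0.74), named after their values were seen, were higher too. The 3 that were not called were Mia3, a cargo receptor for procollagen export (0.03), Tmem38b, an ER potassium channel (0.19), and Colgalt2, a collagen galactosyltransferase (−0.05).

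The collagens that these enzymes act on moved with them. Of 11 fibrillar collagen genes 10 were called higher (90.9%, against 33.5% of all genes), with a median log2 change of 1.11. The rises were led by Col27a1 (1.32), Col5a3 (1.20) and Col1a2 (1.19). Col2a1, the collagen of cartilage and vitreous, fell (log2 change −0.29). The summed level of the 11 genes was 2711 and 2715 FPKM in KO, against 1279 and 1243 FPKM in WT. Among 8 genes of basement membrane and related collagens 2 were called higher, Col15a1 (0.67) and Col18a1 (0.28), and 3 lower, Col4a4 (−0.37), Col4a3 (−0.26) and Col4a2 (−0.11), with a median of −0.02. These counts are 25% higher and 37.5% lower, against 33.5% and 21.1% of all genes.

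The summed fibrillar collagens were 2.15 times as high in KO, so any gene that rose less than that is lower per unit of fibrillar collagen, the collagen-processing genes and the general chaperones alike. For each 1000 FPKM of the 11 fibrillar collagen genes, Serpinh1 stood at 126.5 and 128.4 FPKM in KO and at 149.1 and 157.9 FPKM in WT. Plod2 stood at 10.6 and 9.85 FPKM in KO and at 14.6 and 14.2 FPKM in WT on the same basis. Fkbp10, with the largest rise, stood at 18.4 and 18.0 FPKM in KO and at 21.0 and 19.9 FPKM in WT. Hspa5, the general chaperone BiP, stood at 59.7 and 61.7 FPKM in KO and at 101.5 and 105.7 FPKM in WT. These ratios are descriptions without a test.

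Markers of several tissues outside the lens and retina were higher in the same libraries, and not only those of tissues that make fibrillar collagen. For the counts below, 33.5% of all genes were called higher and 21.1% lower. All 8 mesenchyme markers were called higher, with summed levels of 1137 and 1154 FPKM in KO and of 530.1 and 528.8 FPKM in WT. Of 8 bone markers 7 were tested and all 7 were called higher, with sums of 170.0 and 171.7 FPKM in KO and of 21.2 and 20.1 FPKM in WT. Of 6 cartilage markers 5 were tested, 4 higher and 1 lower, with sums of 117.4 and 121.6 FPKM in KO and of 116.7 and 116.8 FPKM in WT. The sums were mostly Col9a1, the 1 that fell (70.85 and 73.25 FPKM in KO, 79.68 and 78.85 FPKM in WT). Those that rose were Acan (log2 change 0.93), Hapln1 (0.54), Sox9 (0.29) and Col9a2 (0.25). The cartilage marker Matn1, not tested, was at 0 in KO replicate 1 and at most 0.05 FPKM elsewhere. Muscle markers (7 of 8 called higher) summed to 2445 and 2465 FPKM in KO and to 1170 and 1230 FPKM in WT, and surface epithelium markers (6 of 6) to 1136 and 1133 FPKM in KO and to 544 and 568 FPKM in WT. Endothelial markers (4 of 4) summed to 64.95 and 64.96 FPKM in KO and to 36.04 and 36.62 FPKM in WT, and macrophage markers (5 of 5) to 73.5 and 79.4 FPKM in KO and to 40.4 and 35.5 FPKM in WT. Of 8 retina and neuron markers 7 were called lower and 1 higher, with sums of 331.1 and 334.2 FPKM in KO and of 443.8 and 436.6 FPKM in WT. The part of these cell types in the changes of the collagen-processing genes and of the other members was not tested.

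**Figure D2:**
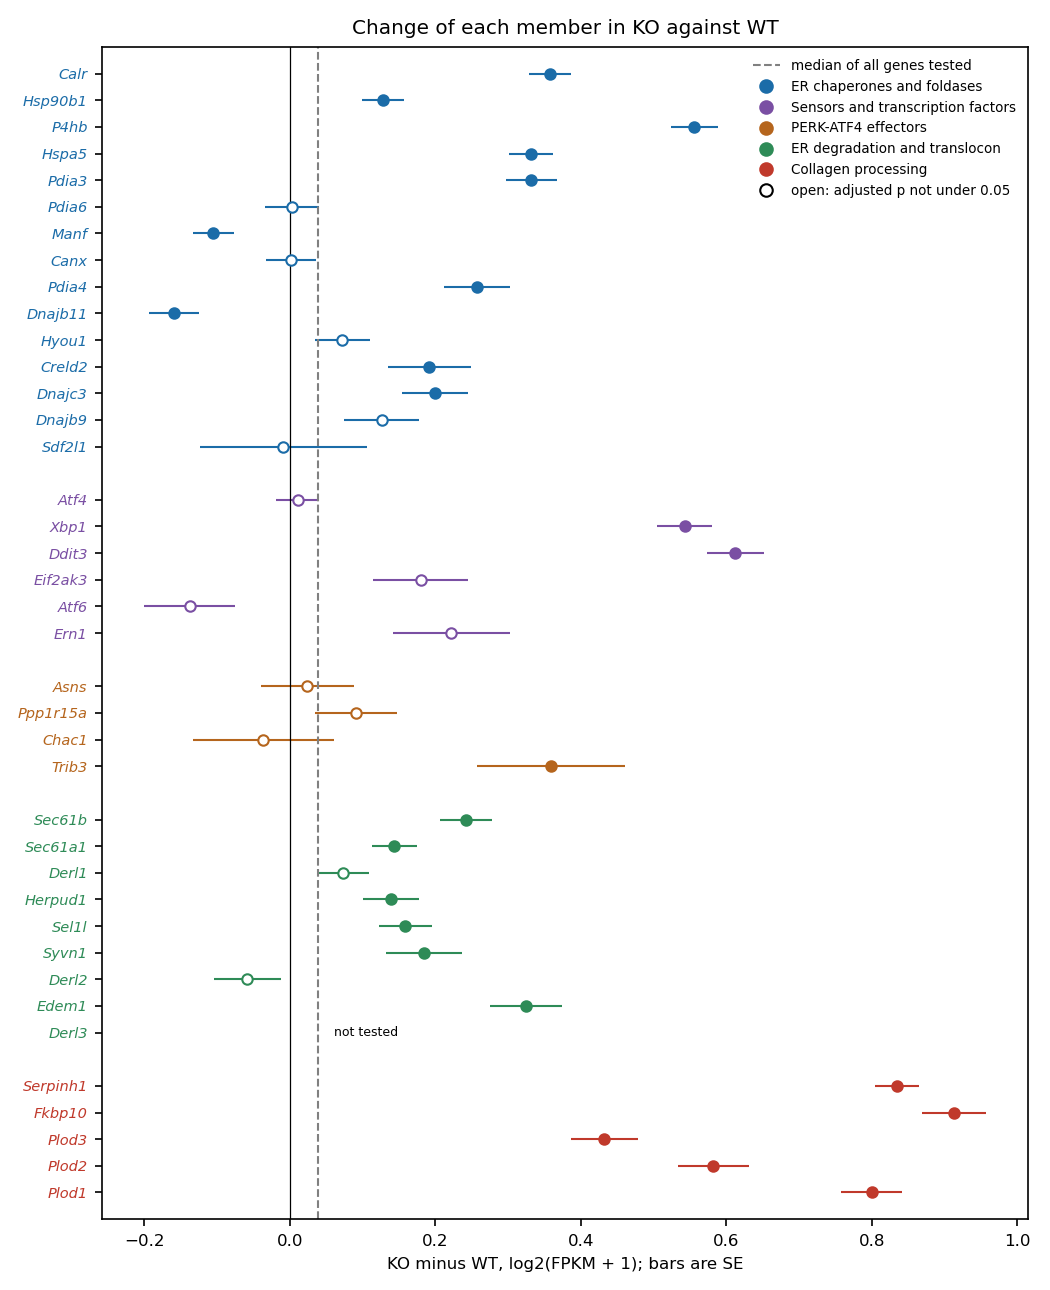
Change in KO against WT on the log2(FPKM + 1) scale (x, with SE bars) for each gene (y), coloured by role, with filled points for genes called and open points for those not called. The 5 collagen-processing genes run from 0.43 to 0.91, and among the other 33 genes tested P4hb (0.56), Xbp1 (0.54) and Ddit3 (0.61) lie in the same range; the dashed line is the median of all genes (0.04).

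The general ER chaperones and foldases rose in part. Of 15 genes 8 were called higher (53.3%, against 33.5% of all genes), 2 lower (13.3%, against 21.1%) and 5 were not called. The median log2 change was 0.13. P4hb encodes protein disulphide isomerase, which also serves as the beta subunit of collagen prolyl 4-hydroxylase, and changed most. It stood at 194.55 and 203.65 FPKM in KO, against 134.08 and 136.15 FPKM in WT, a log2 change of 0.56 (SE 0.03, limma adjusted p = 1.74e-05). Hspa5 encodes BiP, the ER Hsp70 that holds the stress sensors inactive. It stood at 161.74 and 167.58 FPKM in KO and at 129.83 and 131.40 FPKM in WT, so that the KO mean was 26.1% higher (log2 change 0.33, SE 0.03). In P4hb and Hspa5 the gap between the groups was several times the gap within either.

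The lectin pathway of glycoprotein folding changed unevenly. Calr, the soluble lectin calreticulin, stood at 251.02 and 257.43 FPKM in KO and at 196.47 and 199.96 FPKM in WT (log2 change 0.36, SE 0.03). Pdia3, the isomerase ERp57 that works with the lectins, stood at 158.00 and 159.49 FPKM in KO and at 122.13 and 129.79 FPKM in WT (0.33, SE 0.04). Canx, the membrane-bound lectin calnexin, was not called: it had 99.27 and 96.55 FPKM in KO and 95.56 and 100.10 FPKM in WT, and the groups overlapped (log2 change 0.00, SE 0.03, limma adjusted p = 0.975). Canx was called higher with the deposited TPM values only (log2 change 0.12).

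The other isomerases and BiP cofactors also differed among themselves. Pdia4, the isomerase ERp72, stood at 58.21 and 59.79 FPKM in KO and at 47.08 and 51.44 FPKM in WT (0.26, SE 0.05), while Pdia6 overlapped between the groups, with 124.82 and 133.08 FPKM in KO and 129.39 and 127.88 FPKM in WT. Hsp90b1, the ER Hsp90 GRP94, was higher by 0.13 (SE 0.03), with 198.16 and 197.36 FPKM in KO and 183.22 and 178.61 FPKM in WT. That call was lost without KO replicate 1 (adjusted p = 0.0747), without KO replicate 2 (0.0670) and once crystallin and erythroid genes were kept out of the scaling (0.230), within a range of 0.000275 to 0.230. Hsp90b1 shares 10.3% of its exon bases with 1810014B01Rik on the opposite strand. On its own strand it shares 3.30% with Gm25745 and 2.08% with Gm15344.

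Among the J-proteins, which pass clients to BiP, the direction was not shared. Dnajc3, the co-chaperone p58IPK, was called higher (0.20, SE 0.05), with 15.53 and 15.21 FPKM in KO and 13.62 and 12.89 FPKM in WT. Dnajb11, the soluble J-protein ERdj3, was called lower, with 35.50 and 36.83 FPKM in KO and 40.62 and 40.37 FPKM in WT (−0.16, SE 0.03, limma adjusted p = 0.00646). Dnajb9, the J-protein ERdj4 that restrains IRE1, was not called (13.16 and 13.48 FPKM in KO, 11.65 and 12.61 FPKM in WT). Its log2 change was 0.13 (SE 0.05), and both KO values lay above both WT values, as in 45.6% of all genes. Among the alternatives, Dnajb9 was called higher with TPM. The Dnajc3 call was lost without KO replicate 1 (adjusted p = 0.0691), without WT replicate 2 (0.0517) and once crystallin and erythroid genes were kept out of the scaling (0.0677), over a range of 0.00105 to 0.0691. The Dnajb11 call was lost without KO replicate 1 (adjusted p = 0.0594) and with TPM (0.346), over a range of 0.000869 to 0.346.

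Small secreted or stress-induced ER proteins gave mixed values. Manf, a neurotrophic factor kept in the ER, was called lower, with 96.87 and 96.93 FPKM in KO and 105.34 and 103.32 FPKM in WT (−0.11, SE 0.03); with TPM the change was 0.01 and not called, and the call was also lost without KO replicate 1 (adjusted p = 0.0976), without KO replicate 2 (0.0951) and without WT replicate 1 (0.0621), over a range of 0.0015 to 0.698. Manf shares 4.71% of its exon bases with 4930524O07Rik and 4.14% with Dcaf1 on the opposite strand, and 0.397% with Rbm15b on its own strand. Creld2, a disulphide isomerase induced by ER stress, was called higher (0.19, SE 0.06), with 18.09 and 20.08 FPKM in KO and 16.13 and 17.01 FPKM in WT. The Creld2 call was lost in 6 of 11 alternatives, among them without WT replicate 1, without WT replicate 2 and without KO replicate 2 (adjusted p up to 0.159, lowest 0.00189). Hyou1, the large ER Hsp70 relative GRP170, had 25.60 and 25.92 FPKM in KO and 23.94 and 24.98 FPKM in WT and was not called. Sdf2l1, which forms a complex with Dnajb11, varied more within a group than between groups (10.94 and 9.23 FPKM in KO, 8.95 and 11.43 FPKM in WT).

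Chaperone genes of the unfolded protein response are known for an ER stress response element (ERSE) near their start, in which CCAAT is bound by NF-Y and CCACG by ATF6. The 250 bases before the start were available for 32 of the 39 genes, in RefSeq's GRCm38.p6 annotation; Atf6, Derl1, Fkbp10, Hyou1, Manf, Plod2 and Sec61a1 had no entry. CCAAT and CCACG with 9 bases of any kind between them, searched on both strands, was present in 9 of the 32 genes (28.1%), against 0.130% of 27025 genes with such a window. The 9 were 7 of 13 chaperone genes and 2 of 7 degradation and translocon genes, and none of the 3 collagen-processing genes in the table. The matches with 10 bases on either side are shown because they mark out the genes with the textbook element; capitals are the fixed letters, read as CGTGG and ATTGG where the element lies on the other strand.
Hspa5 (chr2:34772015-34772053, plus strand): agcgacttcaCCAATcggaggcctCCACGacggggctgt
Hsp90b1 (chr10:86705523-86705561, minus strand): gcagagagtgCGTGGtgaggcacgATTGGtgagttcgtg
Hsp90b1 (chr10:86705628-86705666, minus strand): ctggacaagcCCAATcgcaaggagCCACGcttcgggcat
Calr (chr8:84847065-84847103, minus strand): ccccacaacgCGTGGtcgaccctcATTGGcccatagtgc
Canx (chr11:50325790-50325828, minus strand): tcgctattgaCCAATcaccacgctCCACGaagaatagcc
Pdia6 (chr12:17266481-17266519, plus strand): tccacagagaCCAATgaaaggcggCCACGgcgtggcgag
Dnajc3 (chr14:118937817-118937855, plus strand): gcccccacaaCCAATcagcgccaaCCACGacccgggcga
Creld2 (chr15:88819510-88819548, plus strand): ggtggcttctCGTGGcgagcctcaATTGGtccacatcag
Syvn1 (chr19:6046522-6046560, plus strand): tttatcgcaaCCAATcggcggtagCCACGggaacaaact
Derl3 (chr10:75893232-75893270, plus strand): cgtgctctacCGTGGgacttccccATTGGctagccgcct

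The genes with an ERSE did not move as a block. Of the 8 tested, 6 were called higher (Calr, Hspa5, Dnajc3, Creld2, Syvn1 and Hsp90b1) and Canx and Pdia6 were not, with log2 changes from 0.00 to 0.36 and a median of 0.19. Among the 20 genes outside collagen processing whose window held no match, 10 were called higher and 1 lower, with a median of 0.17. The shares of all genes called were 33.5% higher and 21.1% lower. The contrast between Hspa5, with the element in capitals, and Serpinh1, without a match to these letters, is shown over the whole 250-base windows, which end at the base before the RefSeq start.
Hspa5 (chr2:34771840-34772089, plus strand): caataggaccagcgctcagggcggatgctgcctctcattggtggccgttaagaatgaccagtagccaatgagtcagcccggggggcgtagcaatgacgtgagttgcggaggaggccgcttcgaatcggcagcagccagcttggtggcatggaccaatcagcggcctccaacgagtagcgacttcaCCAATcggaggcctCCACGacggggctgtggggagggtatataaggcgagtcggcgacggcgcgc
Serpinh1 (chr7:99353240-99353489, minus strand): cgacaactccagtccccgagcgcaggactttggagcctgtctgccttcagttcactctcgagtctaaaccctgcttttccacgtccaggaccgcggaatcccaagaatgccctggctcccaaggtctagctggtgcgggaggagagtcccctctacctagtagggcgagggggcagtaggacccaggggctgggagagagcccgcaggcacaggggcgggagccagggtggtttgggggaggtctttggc

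Genes of ER-associated degradation and of the translocon were mostly higher by small amounts. Of 8 tested, 6 were called higher (75%, against 33.5% of all genes) and none lower (against 21.1%), with a median log2 change of 0.15. Edem1, which helps pick out misfolded glycoproteins by their trimmed sugars, changed most, with 9.27 and 9.12 FPKM in KO and 7.12 and 7.16 FPKM in WT (0.32, SE 0.05, limma adjusted p = 0.00143). Sec61b, the beta subunit of the translocon, stood at 78.24 and 73.82 FPKM in KO and at 63.84 and 64.37 FPKM in WT (0.24, SE 0.04). These were the only members of the role called in all 11 alternatives.

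The other called genes of the role had smaller margins. Sec61a1, the channel-forming subunit, was higher by 0.14 (69.28 and 71.38 FPKM in KO, 63.26 and 63.87 FPKM in WT), and shares 8.16% of its exon bases with Gm44170 on the opposite strand. Sel1l and Syvn1 encode the adaptor and the ubiquitin ligase of the HRD1 complex and were higher by 0.16 and 0.18. Sel1l had 22.55 and 22.65 FPKM in KO, against 20.36 and 19.92 FPKM in WT, and Syvn1 had 16.91 and 17.98 FPKM in KO, against 14.68 and 15.80 FPKM in WT. Herpud1, a membrane protein of the same complex, was higher by 0.14 (26.62 and 25.36 FPKM in KO, 23.45 and 23.56 FPKM in WT). Groups were separate in all 4 genes, as in 77.9% of all genes, and each call was lost when some libraries were left out. For Sec61a1 this was KO replicate 2 (adjusted p = 0.0653), for Sel1l either KO replicate (0.0544 and 0.0598), for Syvn1 either KO replicate or WT replicate 1 (0.0518 to 0.147), and for Herpud1 either WT replicate or KO replicate 1 (0.0727 to 0.123). All 4 calls were also lost once crystallin and erythroid genes were kept out of the scaling. Over the 11 alternatives the highest adjusted p of the 4 genes ran from 0.123 for Sec61a1 to 0.252 for Herpud1, and the lowest, with TPM, from 0.000227 for Sec61a1 to 0.00139 for Syvn1.

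The derlins, membrane proteins of the retrotranslocation channel, were not called. Derl1 had 29.52 and 29.24 FPKM in KO and 28.24 and 27.50 FPKM in WT, and Derl2 had 13.05 and 12.71 FPKM in KO and 13.80 and 13.12 FPKM in WT. Derl3, the derlin known from secretory tissues, was the one gene under the level tested, at 0.82 and 0.59 FPKM in KO and at 0.43 and 0.36 FPKM in WT. Without the filter on low values it had an adjusted p of 0.0568 in limma. Among plasma cell markers, Jchain stood at 0.28 and 0.43 FPKM in KO and at 0.74 and 0.43 FPKM in WT. Pou2af1 stood at 0.12 and 0.23 FPKM in KO and at 0.06 and 0.12 FPKM in WT, so that Jchain and Pou2af1 were near 0. Mzb1 was low but higher in both KO libraries, with 1.77 and 1.65 FPKM in KO and 1.02 and 1.41 FPKM in WT. Its log2 change of 0.30 was not called. Tnfrsf17 was not among the genes listed. Of the 6 plasma cell markers 3 were tested and 2 called higher, Sdc1 and Prdm1, where 33.5% of all genes were. The summed levels were 73.4 and 73.9 FPKM in KO and 49.9 and 47.6 FPKM in WT. Most of each sum was Sdc1 (45.33 and 45.26 FPKM in KO, 26.82 and 25.76 FPKM in WT) and Prdm1 (25.86 and 26.29 FPKM in KO, 21.28 and 19.84 FPKM in WT). The part of plasma cells in the Derl3 values was not tested.

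Herpud1 carries the variant ERSE-II, ATTGG and CCACG with 1 base of any kind between them, which was found in no other member and in 0.0370% of all genes with a window. The core of the C/EBP-ATF response element, TGATGNAA, was found in Herpud1, Asns and Chac1 and in 3.91% of all genes, and the XBP1-type core TGACGTGG in none of the 32 members and 0.603% of all genes. ERSE and ERSE-II are built of the same words (ATTGG being the complement of CCAAT), and TGACGTGG ends in the complement of CCACG, but no matches overlapped in the members. The matches in the genes regarded as ATF4 and stress targets are shown with 10 flanking bases, the fixed letters in capitals.
Herpud1, ERSE-II (chr8:94386367-94386397, plus strand): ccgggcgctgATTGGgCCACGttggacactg
Herpud1, ATF4-type core (chr8:94386307-94386334, plus strand): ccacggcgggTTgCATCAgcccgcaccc
Asns, ATF4-type core (chr6:7693215-7693242, minus strand): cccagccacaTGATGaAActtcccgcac
Chac1, ATF4-type core (chr2:119351039-119351066, plus strand): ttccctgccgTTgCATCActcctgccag

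Of the sensors and transcription factors of the stress response, 2 of 6 were called, both higher, a share of 33.3% that is near the 33.5% of all genes. Ddit3 encodes CHOP, the factor linked to death after prolonged ER stress. It stood at 22.10 and 21.47 FPKM in KO, against 13.99 and 13.82 FPKM in WT, so that the KO mean was 56.7% higher (log2 change 0.61, SE 0.04, limma adjusted p = 2.67e-05). Xbp1 stood at 37.37 and 37.93 FPKM in KO and at 26.20 and 24.89 FPKM in WT (0.54, SE 0.04, limma adjusted p = 3.72e-05). A level for the whole gene does not show how much Xbp1 RNA was in the spliced form that IRE1 makes. Ddit3 and Xbp1 were called in all 11 alternatives.

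The sensors themselves were not called, and their values went both ways. Ern1, which encodes IRE1, had 3.46 and 3.17 FPKM in KO and 2.84 and 2.56 FPKM in WT (log2 change 0.22, SE 0.08, limma adjusted p = 0.0514). Eif2ak3, which encodes PERK, had 9.52 and 9.97 FPKM in KO and 9.02 and 7.98 FPKM in WT (0.18, SE 0.07, adjusted p = 0.0531), and shares 8.05% of its exon bases with Gm43292 on the opposite strand. Ern1 and Eif2ak3 were called higher with TPM and with the replicate number as a block, Eif2ak3 also with the stricter filter and without WT replicate 1 (adjusted p = 0.0270). Atf6 had 7.38 and 6.67 FPKM in KO and 7.96 and 7.68 FPKM in WT (−0.14, SE 0.06, adjusted p = 0.103) and was called lower with median-of-ratios scaling and when crystallin and erythroid genes were kept out of the scaling. In Ern1, Eif2ak3 and Atf6 the groups did not overlap, as was the case in 77.9% of all genes.

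Atf4 and the members grouped here as effectors of PERK and ATF4 (Trib3, Asns, Chac1 and Ppp1r15a) gave 1 call. Of the 4 effectors 25% were called higher, against 33.5% of all genes. Atf4 RNA, whose translation rather than level is known to be raised by PERK, had 114.82 and 118.58 FPKM in KO and 115.56 and 116.01 FPKM in WT (log2 change 0.01, SE 0.03, limma adjusted p = 0.773). Trib3, a pseudokinase induced by ATF4 and CHOP, was the 1 of 4 effectors called, with 2.15 and 1.99 FPKM in KO and 1.23 and 1.57 FPKM in WT (0.36, SE 0.10, adjusted p = 0.0217). Its call was lost without KO replicate 1 (adjusted p = 0.119), without KO replicate 2 (0.0741) and without WT replicate 1 (0.0978), over a range of 0.00731 to 0.119. Asns, asparagine synthetase, had 16.59 and 15.80 FPKM in KO and 16.97 and 14.91 FPKM in WT. Chac1, which degrades glutathione, had 2.0 and 2.24 FPKM in KO and 2.0 and 2.41 FPKM in WT, and Ppp1r15a, the phosphatase subunit GADD34 that ends the PERK signal, had 11.93 and 12.73 FPKM in KO and 11.97 and 11.06 FPKM in WT. In Asns, Chac1 and Ppp1r15a the groups overlapped, while 77.9% of all genes had groups that did not.

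Other genes of the integrated stress response, to which PERK and ATF4 belong, were called higher about as often as all genes. Of 40 tested, 12 were called higher (30%, against 33.5% of all genes) and 13 lower (32.5%, against 21.1%), with a median log2 change of −0.02. The largest rises were those of Stc2, a secreted glycoprotein (13.58 and 11.73 FPKM in KO, 3.99 and 4.39 FPKM in WT, 1.39), Ddit4, an inhibitor of mTORC1 signalling (1.00), and the transcription factor Atf3 (0.82). The largest falls were those of Nupr1, a stress-induced chromatin protein (39.78 and 35.89 FPKM in KO, 97.59 and 102.61 FPKM in WT, −1.38), and of the amino acid transporters Slc7a5 (−0.81) and Slc7a11 (−0.44). Among 12 other regulators of ER stress 5 were called higher (41.7%, against 33.5% of all genes) and 2 lower (16.7%, against 21.1%). Creb3l1, which encodes the ER-bound factor OASIS, known in bone-forming cells for driving type I collagen, had the largest rise, with 15.80 and 15.96 FPKM in KO and 6.88 and 6.34 FPKM in WT (1.15). Nfe2l2 (0.64) and Creb3l2 (0.60) also rose, while Atf6b (−0.12) and Tmbim6 (−0.11) fell.

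Other folding and transport genes of the ER are given beside the 33.5% of all genes called higher and the 21.1% called lower. Of 30 other folding genes 16 were called higher (53.3%) and 2 lower (6.67%), with a median of 0.14. The largest rises were those of the KDEL receptor gene Kdelr3, which returns escaped chaperones to the ER (28.25 and 29.50 FPKM in KO, 12.70 and 13.09 FPKM in WT, 1.10), the disulphide isomerase gene Pdia5 (0.76) and Fkbp11 (0.71), and the falls were those of the calnexin relative Clgn (−0.78) and of Tmx1 (−0.16). Of 39 other degradation and translocon genes 15 were called higher (38.5%, near the share of all genes) and 2 lower (5.13%), with a median of 0.10. The rises were led by Tram1 (0.30), Ssr4 (0.29) and Sec11a (0.28), and the falls were those of Rnf139 (−0.18) and Vcp (−0.09).

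**Figure D3:**
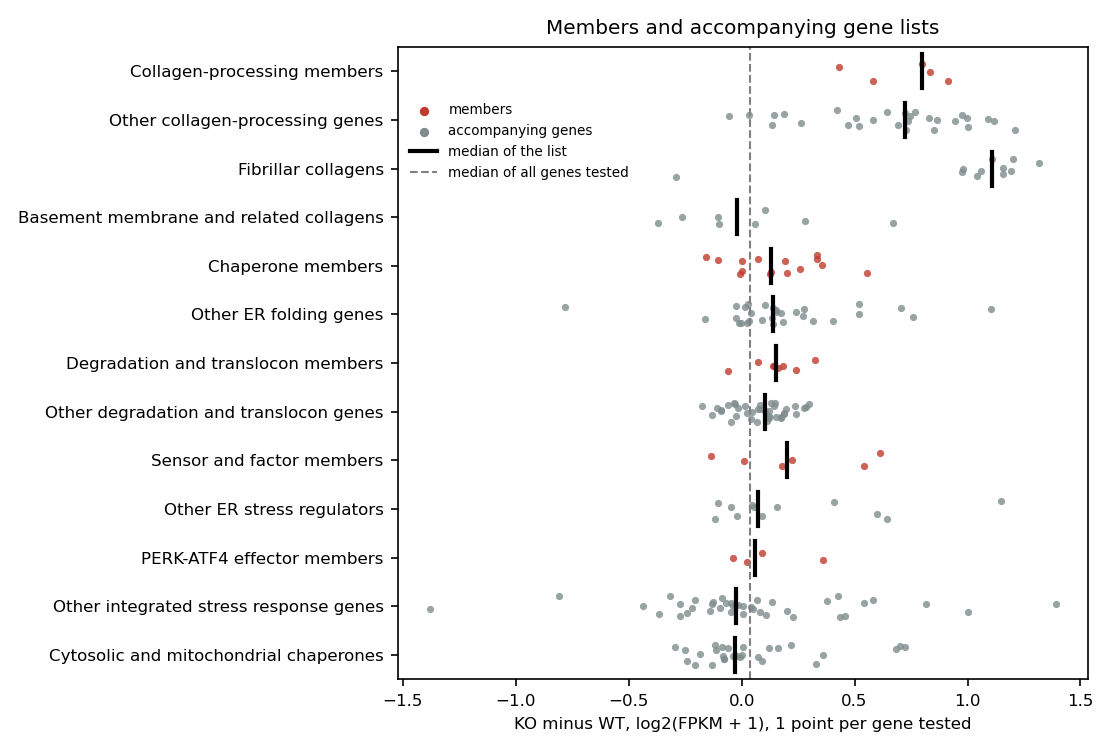
Change in KO against WT on the log2(FPKM + 1) scale (x) of every gene tested, with 1 row per list (y), the 5 groups of members in red and the accompanying lists in grey, black bars as medians and a dashed line at the median of all genes (0.04). The collagen-processing members (median 0.80), other collagen-processing genes (0.72) and fibrillar collagens (1.11) lie to the right, and the stress and chaperone lists have medians between −0.03 and 0.20.

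Set side by side, the 5 collagen-processing genes had a median log2 change of 0.80 and the 33 other members tested a median of 0.14, a difference of 0.66. The difference lay between 0.63 and 0.69 in the 11 alternatives that changed the pseudocount, filter, block, scaling or libraries. The scalings move all genes by nearly the same amount and the block left the estimates unchanged, so neither could move this difference much. Its narrow range therefore shows no stability against them. The difference was 0.55 when P4hb was counted with the collagen genes. The summed level of the 5 collagen-processing genes was 475.4 and 478.9 FPKM in KO and 272.1 and 273.0 FPKM in WT, 1.75 times as high. The summed level of the other 34 members was 1955 and 1986 FPKM in KO and 1701 and 1716 FPKM in WT, 1.15 times as high. Of the 33 other members, 17 were called higher (51.5%, against 33.5% of all genes) and 2 lower (6.06%, against 21.1%).

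Which scaling is used moved the small changes across the threshold. With the deposited TPM values, which shift the median of all genes by 0.12, 31 of the 38 genes were called higher and none lower (49.9% and 12% of all genes). When crystallin and erythroid genes were kept out of the scaling, 15 were called higher and 3 lower (25.4% and 31.2% of all genes), and with median-of-ratios scaling 19 and 3 (28.3% and 26.5%). The scalings move all genes by nearly the same amount, so a position relative to the median of all genes, above which 28 of the 38 lay, hardly depends on them and shows no stability. With the other pseudocount, filters, block and library omissions 16 to 24 members were called higher and 0 to 2 lower. The shares of all genes called higher and lower were 33.4% and 21% with a pseudocount of 0.1, 24.5% and 14.8% without the filter, 34.1% and 23.1% with the stricter filter, and 34.4% and 21.9% with the replicate block. They were 24.6% and 14.8% without KO replicate 1, 24.3% and 14.7% without KO replicate 2, 28.4% and 16.5% without WT replicate 1, and 27.5% and 16.3% without WT replicate 2. The 14 genes called higher under all 11 of these alternatives, to which the minimum change of 0.5 does not belong, were the 5 collagen-processing genes with Hspa5, Calr, Pdia3, Pdia4, P4hb, Xbp1, Ddit3, Edem1 and Sec61b.

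**Figure D4:**
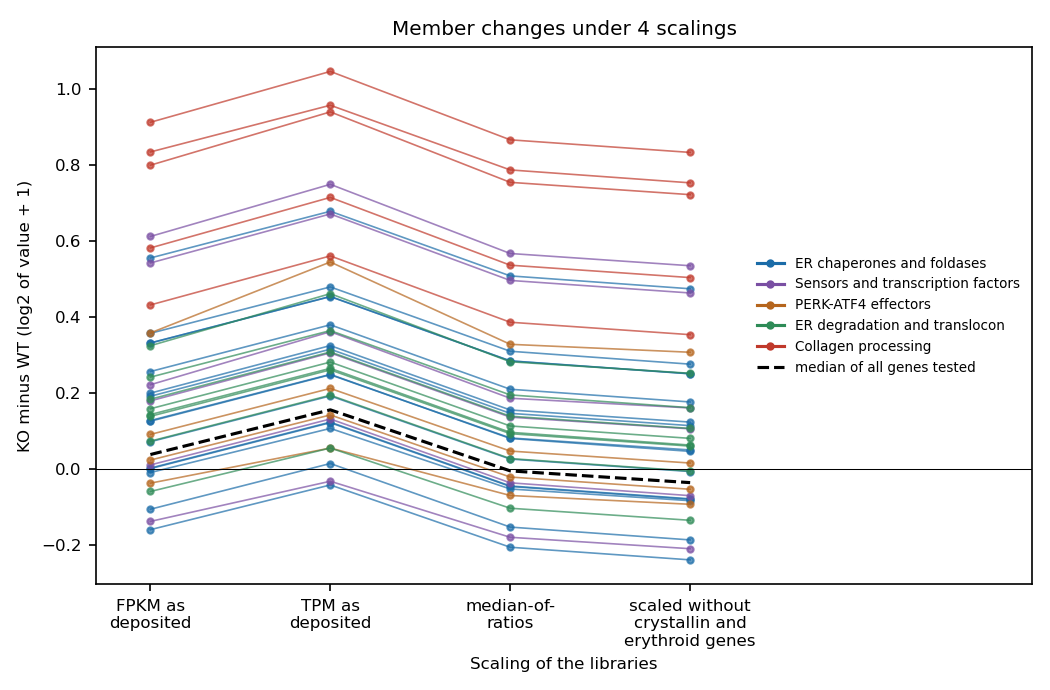
Change in KO against WT (y, log2 of the value plus 1) of the 38 genes tested under 4 scalings of the libraries (x), 1 line per gene coloured by role, with the median of all genes dashed. The lines run almost in parallel, highest with TPM, and genes near 0, such as Manf (−0.11 with FPKM and 0.01 with TPM), change side.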

How the data were processed

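Per the labels' protocols, RNA came from eye tissue by Trizol extraction, and libraries followed standard Illumina steps. The authors deposited FPKM values per gene for each library, per the file headers, and TPM values, which are the deposited FPKM values rescaled to a common sum. Cufflinks, DESeq, HISAT2 and TopHat and the builds GRCh38 and GRCm38 appear in the submitters' processing notes; no source used here states their roles, the annotation, the filters or the use of strand. FPKM divides by all fragments of a library, so a fall in abundant transcripts raises the values of others.

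Of values at a few fragments, 55.0% to 65.5% lay within 0.15 of a whole number of fragments (30% by chance), so counts were not recovered and the count-based test was replaced by the stated limma-trend (limma 3.58.1, R 4.3.3). It ran on log2(FPKM + 1) for genes averaging 1 FPKM or more, with genotype as the only term, 2 residual and 4.89 prior degrees of freedom; the code was tested on simulated data. Groups and numbers come from the titles. Symbols shown as dates (26) were restored from Entrez numbers. Positions and exon overlaps come from GENCODE M21 (GRCm38), promoters from RefSeq.

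The members, roles, accompanying lists and markers were chosen with earlier results of these data known. All members are named, with up to 3 largest rises and 3 largest falls of each accompanying list; the motifs and other named genes were chosen later. Alternatives were a pseudocount of 0.1, no filter, at least 5 FPKM in 2 libraries, a replicate block, TPM, median-of-ratios scaling, scaling without crystallin and erythroid genes, a minimum log2 change of 0.5, P4hb among the collagen genes, and the omission of each library. Python 3.11.15, pandas 2.3.3, numpy 2.4.6 and matplotlib 3.10.9 were used.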

Additional observations from a re-analysis of the deposited data

How the results depend on the processing

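The number of members called higher was 22 and was 15 to 31 over the 11 alternatives of pseudocount, filter, block, scaling and libraries, 16 to 20 with a library left out, and was 7 with a minimum change of 0.5. The number called lower was 2, and 0 with that minimum and 0 with TPM. It was 3 with median-of-ratios scaling and 3 with scaling without crystallin and erythroid genes. With the replicate number as a block, 24 members were called higher and 2 lower; equal numbers deviated together only weakly (correlation across genes 0.04), no label says that they share a source, and every member called without the block was called with it. Among accompanying genes 32 were called lower, 15 with TPM, 49 with scaling without crystallin and erythroid genes, and 16 to 24 with a library left out; among all genes 2932 were, 1667 with TPM. Of all calls 61.3% were higher, 80.6% with TPM, 51.6% with median-of-ratios scaling and 44.9% with scaling without crystallin and erythroid genes.

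Median log2 changes with TPM, median-of-ratios scaling and scaling without crystallin and erythroid genes were 0.25, 0.082 and 0.050 for chaperones, 0.33, 0.16 and 0.13 for sensors and factors (0.24 with a pseudocount of 0.1), 0.18, 0.013 and −0.018 for PERK-ATF4 effectors, and 0.27, 0.11 and 0.072 for degradation and translocon genes. For collagen-processing genes the median was 0.94 with TPM and 0.72 with scaling without crystallin and erythroid genes. With a library left out the medians ran from 0.12 to 0.16, 0.13 to 0.27, 0.047 to 0.13, 0.14 to 0.16 and 0.76 to 0.84 in the same order of roles. The collagen difference was 0.55 with P4hb moved. Manf, at −0.11, was 0.015 with TPM. Each scaling multiplies a library by a single factor, so its shift is nearly the same for all genes. The median of all genes moved by 0.12 with TPM and by −0.043 with median-of-ratios scaling. With scaling without crystallin and erythroid genes it moved by −0.074. The cause of the other shifts was not tested. With 2 libraries a group, changes near 0.1 lie at the limit of what these values resolve.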

Other observations

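Chaperones outside the ER went both ways. Of 28 genes of cytosolic and mitochondrial chaperones and their regulators 7 were called higher and 9 lower (33.5% and 21.1% of all genes), with a median log2 change of −0.03. The largest rises were those of Bag3, a co-chaperone of Hsp70 (12.23 and 12.84 FPKM in KO, 7.59 and 6.81 FPKM in WT, 0.72), and of the heat-inducible genes Hspa1b (0.70) and Hspa1a (0.68), whose reads cannot be parted with certainty since the copies are almost the same. The largest falls were those of Dnajb1 (20.76 and 20.59 FPKM in KO, 25.21 and 26.02 FPKM in WT, −0.30), a partner of Hsp70, of Hsp90aa1 (−0.25), the inducible cytosolic Hsp90, and of Hspa4l (−0.24). The summed level of the 28 genes was 3332 and 3352 FPKM in KO and 3320 and 3367 FPKM in WT, so that the groups overlapped.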
